A study of Mus musculus with 20 samples.

Results

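The genes described here make and package secreted peptides. They are 9 genes: Pcsk1 and Pcsk2, Cpe, Pam, Chga, Chgb, Scg2, Scg3 and Scg5. A member was measured by the probe set whose only gene symbol in the array annotation was that member, and 8 of the 9 had such a probe set, out of 18820 genes with one in the whole series. Each of the 8 had 1 probe set. Pcsk2, a convertase of the granule, had none and was not analysed here. The values cover 20 arrays in 5 groups of 4, from 2 mouse cell lines whose labels call them hypothalamic neuronal cells, HypoE-46 (E46 here) and HypoA-2/12 (A2/12 here). The series asked how serotonin acts on the expression and release of the feeding peptide Npy in a line its labels call sensitive to serotonin (E46) and one they call unresponsive (A2/12). The groups were E46 controls, E46 with serotonin labelled 1 µg/ml, E46 with serotonin labelled 100 µg/ml, A2/12 with serotonin labelled 100 µg/ml, and A2/12 controls. Every culture, controls included, had been without serum for 4 h before an exposure of 24 h. No other agent is named in the labels, and each line stands for 1 cell line only. The titles give the E46 doses used here, but the description of the same arrays gives them the other way round, so "labelled 100" and "labelled 1" mean the dose in the title. Nothing in the labels says that replicate arrays stand for separate cultures, so the p-values measure the spread between arrays, which may be technical.

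Peptide hormones and neuropeptides are made as longer precursors that enter the secretory pathway and are packed into dense-core granules. Granins such as Chga, Chgb, Scg2 and Scg3 aggregate in the trans-Golgi network and help form the granule. Inside it the convertases Pcsk1 and Pcsk2 cut precursors after basic residues, Cpe trims the basic residues left at the new end, and Pam turns an end glycine into the amide that many peptides, Npy among them, need for full activity. Scg5, also called secretogranin V, is the chaperone and inhibitor of Pcsk2. Cells with regulated secretion, among them neurons and endocrine cells, express these genes strongly, and several of their promoters are textbook targets of factors that bind the cyclic AMP response element (CRE), the letters TGACGTCA.

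Promoter letters are shown because the members divide into those with this element and those without it. RefSeq windows on GRCm38.p6 ran from 250 bases before to 50 bases after a gene's start. They were found for 8 of the 9 members, Pcsk2 among them, but not for Cpe, whose promoter was not searched. For Pam, with overlapping windows, the first listed is shown. The full element, searched on both strands (it reads the same on each), was in 3 of the 8: Pcsk1, Scg2 and Chgb. It was in 1.79% of all 32851 windows of this length. The shorter TGACG, part of every full element, was in 7 of the 8, all but Pam, and in 20.8% of all windows. The letters are given from 250 bases before the start to the base before it, or as 60 bases around the element. Capitals mark both on either strand, and each sequence runs 5′ to 3′ on the strand of its gene.
Scg2, minus strand, chr1:79440027-79440276: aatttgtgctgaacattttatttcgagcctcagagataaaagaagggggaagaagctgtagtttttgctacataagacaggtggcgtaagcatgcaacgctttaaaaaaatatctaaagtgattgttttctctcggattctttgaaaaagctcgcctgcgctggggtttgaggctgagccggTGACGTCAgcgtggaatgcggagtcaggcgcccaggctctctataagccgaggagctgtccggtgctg
Scg5, minus strand, chr2:113829092-113829341: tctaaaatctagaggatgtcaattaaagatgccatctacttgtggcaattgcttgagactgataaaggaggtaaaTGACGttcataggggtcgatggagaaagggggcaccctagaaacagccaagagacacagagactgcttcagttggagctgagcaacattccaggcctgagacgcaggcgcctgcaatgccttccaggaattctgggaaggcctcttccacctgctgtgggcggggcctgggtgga
Pam, minus strand, chr1:98095647-98095896: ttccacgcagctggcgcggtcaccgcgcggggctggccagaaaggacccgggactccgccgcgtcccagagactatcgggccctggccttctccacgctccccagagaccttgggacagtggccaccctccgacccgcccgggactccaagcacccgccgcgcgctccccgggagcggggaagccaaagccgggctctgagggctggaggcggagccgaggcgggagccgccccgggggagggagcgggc
Pcsk1, plus strand, chr13:75089753-75089812: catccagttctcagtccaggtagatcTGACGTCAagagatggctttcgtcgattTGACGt
Chgb, plus strand, chr2:132781544-132781603: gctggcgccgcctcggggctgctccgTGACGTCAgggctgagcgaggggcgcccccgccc
Chga, plus strand, chr12:102554871-102554930: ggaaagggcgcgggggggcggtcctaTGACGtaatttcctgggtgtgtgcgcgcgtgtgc
Counted from the start, the element began at position -78 in Pcsk1, -68 in Scg2 and -72 in Chgb. The Pam window held neither of them. A match describes letters only and is not evidence that a factor bound there. The letters TATAAA were in 1 of the 8 members, Chga, where they began at position 6 after the start, and in 13.6% of all windows. The GC box GGGCGG was in 6 of the 8, Pam and Scg5 among them, and in 35.7% of all windows. The composite letters TGATGNAA, bound by heterodimers of C/EBP and ATF factors, were in 0 of the 8 and in 3.97% of all windows.

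All levels below are log2 RMA values, the scale on which the table was deposited. A rise of 1 is a doubling of signal, and folds near background are compressed toward 0. Since probe sets differ in brightness, levels were compared between arrays and not between genes. Background was read from 1155 odorant and pheromone receptor genes. Their 95th percentile over group means lay between 4.35 and 4.66. Arrays correlated with each other at 0.933 to 0.998 across genes, and 18 of 20 were nearest to their own group. The exceptions were E46 labelled 1 replicates 2 and 4, which were nearest to the E46 controls. In 4 arrays the upper quartile of all values lay below 8.2: E46 control replicate 1, E46 labelled 1 replicates 1 and 3, and A2/12 control replicate 2. In 2 control arrays markers of other cells stood high. A2/12 control replicate 4 had a mean of 5.98 over 10 macrophage markers, against 4.33 to 4.43 in the other A2/12 controls, with Lyz2 at 9.02, against 3.88 to 4.30, and Tyrobp at 6.97, against 3.96 to 4.22. E46 control replicate 3 had a mean of 4.83 over 9 intestinal markers, against 4.25 to 4.38 in the other E46 controls. Fabp2 read 5.85 there, against 3.46 to 3.82. Of the 9, only Fabp1 (3.24, against 3.33 to 3.63) and Apoa4 (4.89, against 4.50 to 5.03) were not highest on that array. The number of arrays limits the precision, with a median standard error of 0.1003 for a change between groups.

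The label of neuronal cells was met by part of the neuron markers. Of 14 neuron markers listed 12 were measured, and 6 exceeded the receptor background in the controls of each line. Map2, a microtubule protein of dendrites, stood at 10.43 in E46 controls and 9.62 in A2/12 controls. Rbfox3, Elavl4, Nefl, Nefm, Dcx and the fusion protein Snap25 lay between 3.23 and 4.18 in the controls of both lines, within the receptor background. Of 8 fibroblast markers, 7 exceeded it in every group. Of 8 astrocyte markers, 6 exceeded it in E46 controls and 4 in A2/12 controls, with Slc1a3 at 10.24 and 6.37. Gfap and Aqp4 stayed under it in every group. Of 8 chromaffin and other endocrine markers measured, at most 1 exceeded it in any group.

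Only part of the peptide machinery was above background in these cells. Pam, Cpe, Scg5 and Chgb exceeded the receptor background as a group mean in all 5 groups. Chga exceeded it in 4 of 5, missing it in E46 labelled 1, where the background itself was highest. Scg2 exceeded it in A2/12 controls alone. Pcsk1 and Scg3 stayed under it in every group and on every array.

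**Figure D1:**
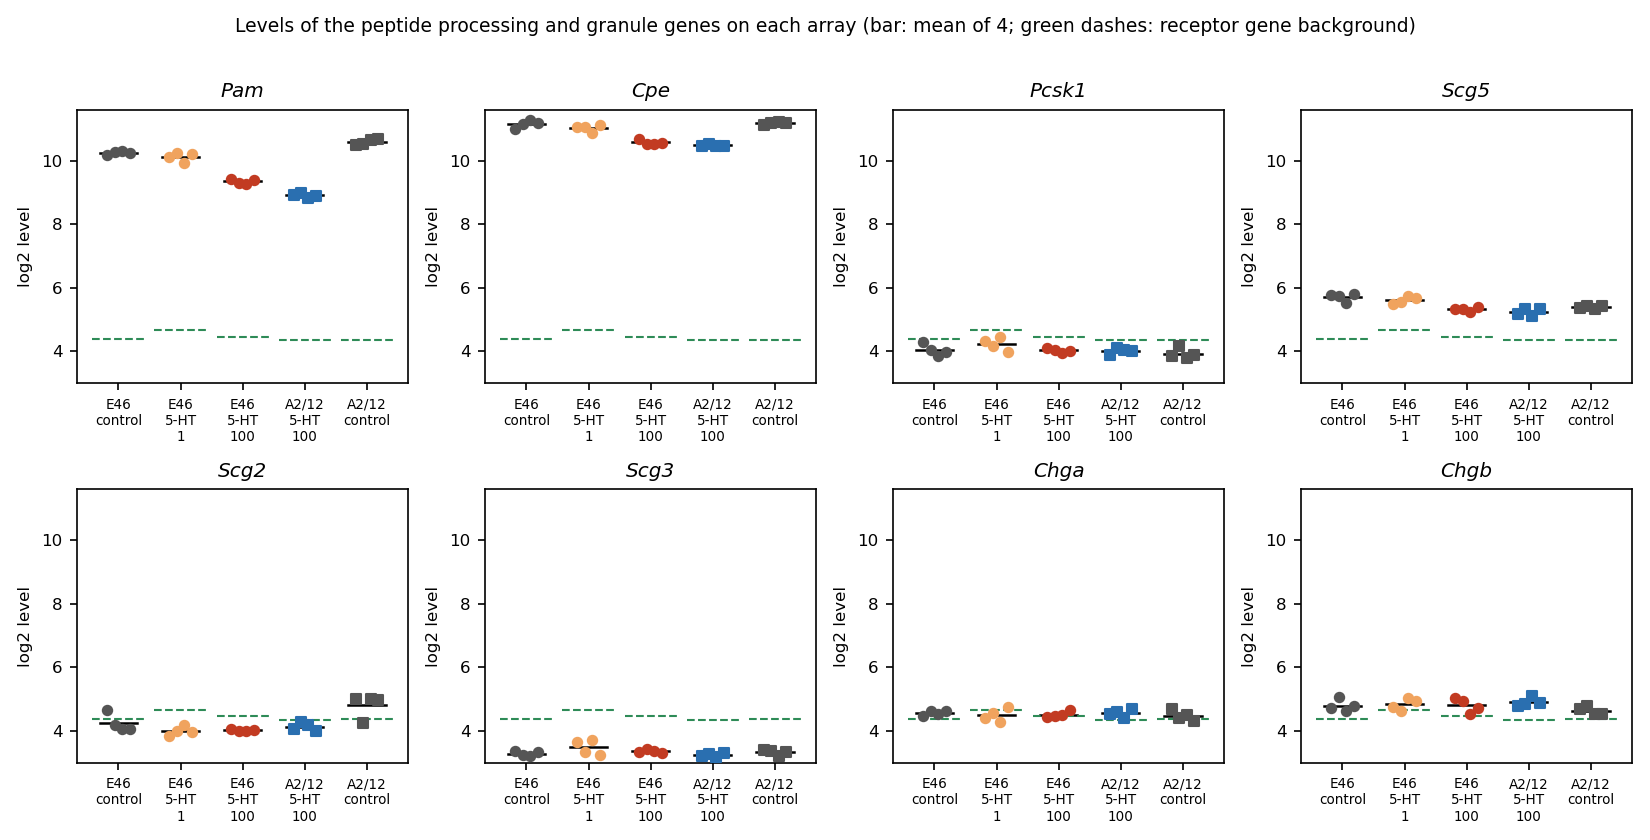
Log2 RMA level (y axis, the same scale for each gene) of the 8 measured members on each of the 20 arrays (points) with the group mean (bar), by group (x axis), where 5-HT is serotonin and 1 or 100 is the labelled dose in µg/ml. Green dashes mark the receptor background of each group: Pam and Cpe lie far above them and are lower at labelled 100 than in the controls of both lines, while Pcsk1 and Scg3 stay under them.

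With serotonin labelled 100, E46 cells had less RNA for the enzymes that finish a peptide and for the chaperone Scg5. Pam fell 1.86-fold and Scg5 1.30-fold against E46 controls, and Cpe fell by 0.58 on the log2 scale. The other 5 measured members did not pass the test. In limma with Benjamini-Hochberg adjustment over all 18820 genes, 0 of 8 members were called higher and 3 lower at an adjusted p below 0.05. Over all genes 20.3% were called higher and 19.3% lower, 39.6% in all, so the share of members called (3 of 8) is near the background. Among the 12933 genes above the receptor background in either group, 26.7% were called lower. Above it in either group were 5 of the 8 members, all 3 called ones among them. The median change over the 8 members was -0.13, beside -0.0035 over all genes.

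Pam, the amidating enzyme, read 9.41, 9.30, 9.27 and 9.40 in E46 at labelled 100, against 10.19, 10.26, 10.29 and 10.23 in E46 controls. Every exposed array was below every control, and the gap between the groups was many times the spread inside them. The change was -0.90 ± 0.07 (SE, 95% interval -1.05 to -0.75, adjusted p = 2.01e-09 in limma). Of all genes, 4.89% had a lower change.

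Cpe, the carboxypeptidase, read 10.69, 10.52, 10.52 and 10.55 at labelled 100, against 11.0005, 11.15, 11.27 and 11.19 in E46 controls. The groups did not overlap. The change was -0.58 ± 0.07 (SE, 95% interval -0.73 to -0.44, adjusted p = 5.30e-07 in limma), and 8.92% of genes had a lower one.

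Scg5 read 5.33, 5.32, 5.24 and 5.40 at labelled 100, against 5.77, 5.73, 5.51 and 5.79 in E46 controls. All 8 arrays were above the receptor background, and the groups did not overlap, although E46 control replicate 3 came close to the highest exposed array. The change was -0.38 ± 0.08 (SE, adjusted p = 0.000365 in limma), with 13.9% of genes lower.

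The other granins gave no call in E46. Chgb averaged 4.80 ± 0.22 at labelled 100 and 4.80 ± 0.20 in E46 controls (SD, n = 4 each), a difference of 0.01 ± 0.12 (SE, adjusted p = 0.982 in limma). Chga averaged 4.52 ± 0.11 and 4.56 ± 0.07 (SD, n = 4 each) in the same groups, a difference of -0.05 ± 0.10 (SE, adjusted p = 0.763 in limma). The Chgb interval ran from -0.24 to 0.25 and that of Chga from -0.25 to 0.15. Both genes lay close to the receptor background, where folds are compressed, so these intervals do not bound the true change. For Scg2, Scg3 and Pcsk1 the levels sat at or near background, where a change could not be read. Scg2 differed by -0.21 ± 0.15 (SE, adjusted p = 0.299), Scg3 by 0.08 ± 0.09 (SE, adjusted p = 0.521) and Pcsk1 by -0.01 ± 0.10 (SE, adjusted p = 0.971), all in limma.

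The arrays' scan names carry a row letter and a number, and each number (5, 7 and 9) held arrays of every group. Inside the 3 numbers the change of Pam was -0.94, -0.86 and -0.996, and that of Cpe -0.58, -0.53 and -0.75. Scg5 changed by -0.54, -0.37 and -0.19 and did not pass the test inside any of them. With number as a block all 3 calls held, and with the row letter as a block they were -0.87 for Pam, -0.59 for Cpe and -0.47 for Scg5 (adjusted p = 0.000214, 0.00462 and 0.0281 in limma). Rows bring both groups together only in row B, so the row-blocked values set 2 exposed arrays against 1 control, E46 control replicate 4. Inside number 9 each of these groups had 1 array and the spread came from 1 pair of labelled 1 arrays. None of the 3 passed the test there, in a design that leaves 1 residual degree of freedom, and at number 5 Pam alone passed.

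Fibroblast and astrocyte markers moved in the same arrays. Of 8 fibroblast markers 7 fell at labelled 100 in E46 and 0 rose, with a median change of -1.43. The mean over the list ran from 6.89 to 7.54 on the exposed arrays and from 8.56 to 8.73 on the controls. Of 8 astrocyte markers 6 fell and 0 rose, and of 12 neuron markers 2 fell, Map2 by 1.79 and Stmn2 by 0.33 on the log2 scale. The Stmn2 call was lost without E46 labelled 100 replicate 3 (-0.26, adjusted p = 0.069 in limma). In bulk RNA, fewer cells of a type and less RNA per cell cannot be told apart, and the part of these markers in the members' changes was not tested. Without E46 control replicate 3 the change was -0.88 for Pam, -0.55 for Cpe and -0.44 for Scg5, and each was still called.

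At serotonin labelled 1 none of the 8 members was called against E46 controls by limma, as against 0.0106% of all genes (2 of 18820). One member, Scg3, had an unadjusted p below 0.05 (0.0235, adjusted p = 0.260), at a level inside the receptor background. Pam read 10.10, 10.24, 9.93 and 10.19 at labelled 1, against 10.19, 10.26, 10.29 and 10.23 in E46 controls, and the groups overlapped. Its difference was -0.13 ± 0.07 (SE, adjusted p = 0.380), and that of Cpe was also -0.13 ± 0.07 (SE, adjusted p = 0.362), with 11.06, 11.06, 10.87 and 11.11 at labelled 1. Scg5 read 5.49, 5.56, 5.72 and 5.67 at labelled 1, a difference of -0.09 ± 0.08 (SE, adjusted p = 0.576 in limma). The difference was smaller for all 3 than at labelled 100.

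Set directly against labelled 1, labelled 100 was lower for the same 3 members, with 0 higher of 8, beside 23.6% of genes called higher and 17.8% lower, 41.4% in all. The difference was -0.77 ± 0.07 for Pam, -0.46 ± 0.07 for Cpe and -0.29 ± 0.08 for Scg5 (SE; adjusted p = 1.91e-08, 1.35e-05 and 0.00380 in limma), and in none did the groups overlap. With the row letter as a block, which sets 2 arrays at labelled 100 against 1 at labelled 1 in row C, Scg5 was -0.17 (adjusted p = 0.38). These comparisons share arrays and are therefore not independent of each other. Were the doses those of the description, the fall would belong to 1 µg/ml and the values near the controls to 100 µg/ml.

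In A2/12, the line labelled unresponsive, Pam fell 3.20-fold and Cpe 1.62-fold with serotonin labelled 100 against A2/12 controls. Scg2 fell too, to a level under the receptor background, so its fold has no exact size. Limma called 0 of 8 members higher and 3 lower, beside 24.8% of all genes higher and 21.1% lower, 45.9% in all, again a share (3 of 8) near the background. Among the 13148 genes above the receptor background in either group, 29.1% were called lower. Above it in either group were 6 of the 8 members, all 3 called ones among them. Scg2 was counted through the controls alone, where it was higher, so its fall is not independent of that filter. The median change was -0.13 over the members and 0.0017 over all genes.

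Pam read 8.93, 8.98, 8.82 and 8.89 in A2/12 at labelled 100, against 10.49, 10.51, 10.64 and 10.68 in A2/12 controls. The groups lay far apart with no overlap. The change was -1.68 ± 0.07 (SE, 95% interval -1.83 to -1.53, adjusted p = 9.50e-14 in limma), and 2.77% of genes had a lower one.

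Cpe read 10.47, 10.52, 10.45 and 10.46 at labelled 100, against 11.11, 11.18, 11.21 and 11.19 in A2/12 controls, again without overlap. The change was -0.70 ± 0.07 (SE, 95% interval -0.84 to -0.55, adjusted p = 2.53e-08 in limma).

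Scg2, the precursor of the peptide secretoneurin, read 4.05, 4.28, 4.19 and 4.00 at labelled 100, against 5.00, 4.26, 5.01 and 4.97 in A2/12 controls. The exposed arrays were all under the receptor background of their group (4.35), as was A2/12 control replicate 2, so the groups overlapped. The change was -0.68 ± 0.15 (SE, 95% interval -0.99 to -0.37, adjusted p = 0.000589 in limma). Without A2/12 control replicate 2 it was -0.86.

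Chgb read 4.77, 4.86, 5.10 and 4.89 at labelled 100, against 4.69, 4.77, 4.53 and 4.53 in A2/12 controls. The lowest exposed array and the highest control nearly touched. The difference of 0.28 ± 0.12 (SE, 95% interval 0.03 to 0.53) missed the threshold (adjusted p = 0.0630 in limma), and it was 0.32 (adjusted p = 0.046 in limma) without A2/12 control replicate 2. Scg5 averaged 5.23 ± 0.11 at labelled 100 and 5.39 ± 0.05 in A2/12 controls (SD, n = 4 each), a difference of -0.16 ± 0.08 (SE, adjusted p = 0.108 in limma). Chga, Scg3 and Pcsk1 differed by 0.08, -0.09 and 0.09 (adjusted p = 0.598, 0.435 and 0.548 in limma).

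Within the scan numbers 5, 7 and 9 the A2/12 change of Pam was -1.77, -1.61 and -1.66, that of Cpe -0.70, -0.71 and -0.69, and that of Scg2 -0.79, -0.23 and -0.73. Scg2 did not pass the test at number 7, whose only control is A2/12 control replicate 2, and neither Scg2 nor Cpe passed it at number 9, with 1 array of each group and 1 residual degree of freedom. With the row letter as a block Pam was -1.73, Cpe -0.69 and Scg2 -0.80 (adjusted p = 0.0344 for Scg2 in limma), values that set 2 exposed arrays against A2/12 control replicate 4 alone in row F. The list means of the fibroblast markers ran from 7.46 to 7.98 on the exposed arrays and from 9.51 to 9.68 on the controls, with 5 of 8 markers falling and 1 rising. Of 8 astrocyte markers 5 fell, and of 12 neuron markers 3 fell. Stmn2 fell by 2.16, Map2 fell by 1.92 and the vesicle protein Syt1 fell by 0.80 on the log2 scale. Their part in the members' changes was not tested. Of 10 macrophage markers 0 fell and 1 rose, with list means from 4.38 to 4.64 on the exposed arrays and from 4.33 to 5.98 on the controls, the top value being A2/12 control replicate 4. Without that array Pam was -1.64, Cpe -0.69 and Scg2 -0.62 (adjusted p = 1.33e-12, 2.20e-07 and 0.00286 in limma).

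**Figure D2:**
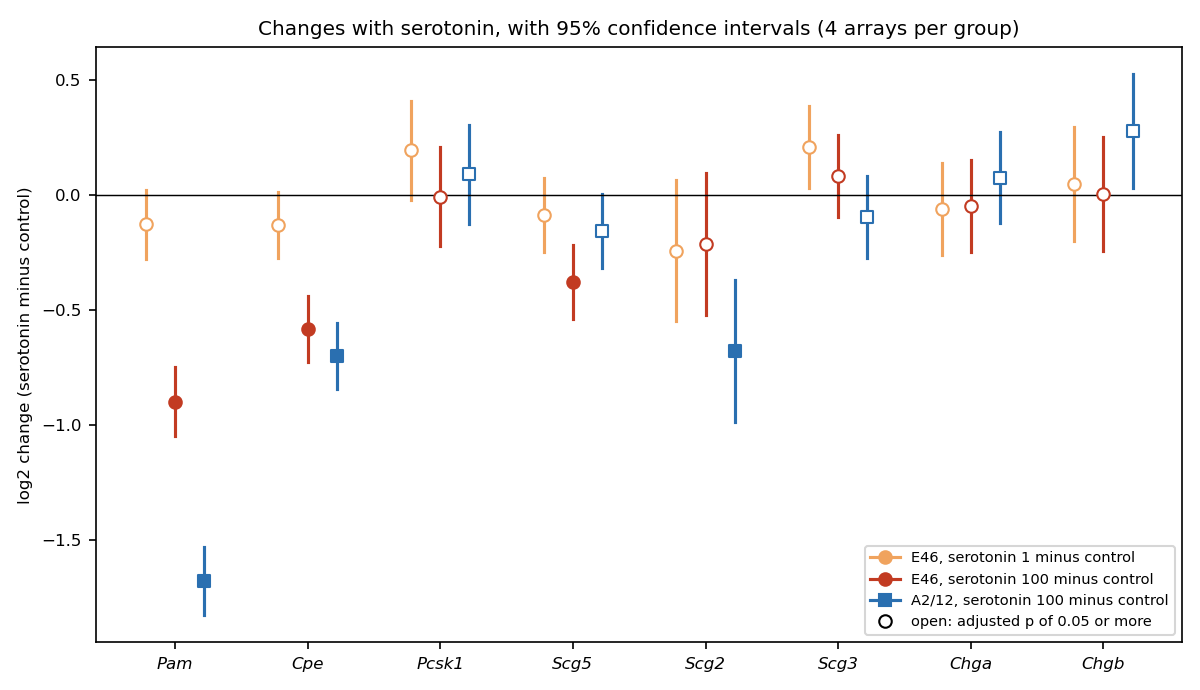
Log2 change with serotonin (y axis, serotonin minus control of the same line) of each of the 8 measured members (x axis) with its 95% confidence interval, for E46 at labelled 1, E46 at labelled 100 and A2/12 at labelled 100. Open points did not pass an adjusted p of 0.05 over all genes, and Pam is the lowest point in both comparisons at labelled 100, at -0.90 in E46 and -1.68 in A2/12.

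The response of Pam differed between the lines. Its change in E46 minus its change in A2/12 was 0.78 ± 0.10 (SE, 95% interval 0.57 to 0.99, adjusted p = 5.64e-06 in limma), the smaller fall being in E46. It was 0.75 without A2/12 control replicate 4 and 0.80 without E46 control replicate 3, and was called in both cases. It was the 1 member of 8 called for the difference of responses, beside 22% of all genes (11.1% positive, 10.9% negative). For Cpe the difference was 0.11 ± 0.10 (SE, 95% interval -0.09 to 0.32, adjusted p = 0.482 in limma), which leaves room for a modest difference in either direction. Scg5, called in E46 and not in A2/12, gave a difference of -0.22 ± 0.11 (SE, adjusted p = 0.167 in limma), so the lines were not shown to differ in it. For Scg2, called in A2/12 and not in E46, it was 0.46 ± 0.21 (SE, 95% interval 0.03 to 0.90, adjusted p = 0.128 in limma). That difference passed the threshold when E46 control replicate 1 was left out (0.61, adjusted p = 0.025), and likewise without A2/12 control replicate 2 (0.65, adjusted p = 0.0055), 2 of the arrays with a low upper quartile.

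Without serotonin the lines differed in 3 of the 8 members, beside 39.1% of all genes (21.1% higher and 18.1% lower in E46 controls). No row letter of the scan names held arrays of both lines, so line and row cannot be told apart here. Pam was lower in E46 controls than in A2/12 controls (-0.34 ± 0.07, SE, adjusted p = 0.000559 in limma), with no overlap between the array values given above. Scg2 was also lower (-0.57 ± 0.15, SE, adjusted p = 0.00345). It read 4.66, 4.18, 4.05 and 4.06 in E46 controls, of which only the first was above background, against 3 of 4 A2/12 controls above it. Scg5 was higher in E46 controls (0.31 ± 0.08, SE, adjusted p = 0.00227), with no overlap. Cpe was 11.15 ± 0.11 in E46 controls and 11.17 ± 0.04 in A2/12 controls (SD, n = 4 each), a difference of -0.02 ± 0.07 (SE, adjusted p = 0.846 in limma). Without A2/12 control replicate 4 the difference was -0.31 for Pam, -0.52 for Scg2 and 0.33 for Scg5, and each was still called.

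The order of the groups was therefore not the same for every member. From low to high, Pam ran A2/12 labelled 100, E46 labelled 100, E46 labelled 1, E46 controls and A2/12 controls. Of the neighbours in that order, only E46 labelled 1 and E46 controls overlapped in their arrays. Scg5 ran A2/12 labelled 100, E46 labelled 100, A2/12 controls, E46 labelled 1 and E46 controls, and its first 3 groups overlapped with each other, as did the last pair. Npy, the peptide the series was built around, averaged 4.55 in E46 at labelled 100, against 4.45 in E46 controls, and 4.30 in A2/12 at labelled 100, against 4.31 in A2/12 controls, values at or near the receptor background.

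Over the 20 arrays Pam and Cpe moved together (r = 0.967, and 0.748 after removing the group means). Scg5 followed them less closely over all arrays (0.596 with Pam, 0.639 with Cpe). With group means removed its correlation was -0.070 with Pam and -0.303 with Cpe. Among 13483 genes above background in some group, those most like Pam were Stxbp6, a syntaxin-binding protein, the transcription factor Nr2f2 and the arrestin Arrb1 (r = 0.992, 0.991 and 0.990). Those most like Cpe were Glt8d2, Ppl and the fibroblast-list receptor Pdgfrb (0.978, 0.978 and 0.976). For Scg5 they were Smoc2, Tek and Tbx15 (0.907, 0.905 and 0.901), and for Scg2 Pex5l, Mrvi1 and Cyp2f2 (0.898, 0.893 and 0.889). Chga and Chgb had no gene above 0.735 and 0.688. These are descriptions over arrays that share groups, depth of signal and normalization, and with group means removed the 3 genes most like Pam correlated with it at 0.505 to 0.625.

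Other genes of the pathway are given as lists, with each gene tested on its own and the lists described by counts. Those counts stand beside 20.3% of all genes called higher and 19.3% lower at labelled 100 in E46, and 24.8% higher and 21.1% lower in A2/12. Of 11 other carboxypeptidases and enzymes that modify peptide ends, 5 fell and 1 rose at labelled 100 in E46, and 5 fell and 3 rose in A2/12. The median changes were -0.21 and -0.11, beside -0.0035 and 0.0017 over all genes. Qpct, which forms the pyroglutamate at a peptide's front end, fell to 7.18 in E46 at labelled 100, against 7.93 in E46 controls (-0.75 ± 0.10, SE), and to 7.37 in A2/12 at labelled 100, against 8.07 in A2/12 controls (-0.70 ± 0.10, SE). Cpd, the carboxypeptidase of the trans-Golgi network, fell by 0.33 in E46 and by 0.66 in A2/12 on the log2 scale. Tpst1, a tyrosine sulfotransferase, fell by 0.55 in E46. In A2/12 the carboxypeptidase-like Cpxm1 fell to 5.12 at labelled 100, against 7.17 in the controls (-2.05 ± 0.12, SE).

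Of 6 other convertases and inhibitors measured of 8 listed, 1 rose and 1 fell in E46 and 2 rose and 1 fell in A2/12. Pcsk4, a convertase known from germ cells, rose in both, by 0.64 ± 0.10 in E46 and 1.02 ± 0.10 in A2/12 (SE). Furin, the convertase of the constitutive pathway, was called lower in E46 (-0.18 ± 0.07, SE, adjusted p = 0.044) and higher in A2/12 (0.18 ± 0.07, SE, adjusted p = 0.040). The E46 call of Furin was lost without any single E46 array but control replicate 3, and the A2/12 call without any single A2/12 array but control replicate 1 and labelled 100 replicate 2, so neither direction is firm. Mbtps1, the site-1 protease, fell by 0.74 in A2/12 on the log2 scale.

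Genes that build granules and genes that release them are given side by side, and the difference between the lists was not tested. Of 12 genes of granule formation and maturation, 5 rose and 2 fell in E46 (median change 0.11), and 5 rose and 4 fell in A2/12 (median 0.05). Ccdc186, needed for granule maturation in worms, rose by 0.96 ± 0.13 in E46 and 1.15 ± 0.13 in A2/12 (SE), and Hid1, needed for the same step in worms, fell by 0.63 in E46 on the log2 scale. Of 28 genes of docking and release measured of 30, 0 rose and 11 fell in E46, and 3 rose and 9 fell in A2/12 (median -0.08 in each). Over all genes above the receptor background in a group compared, 29.3% were higher and 26.7% lower in E46, and 34.8% and 29.1% in A2/12. Above it in a group compared were 18 of the 28 release genes in each line, and all 12 formation genes.

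Among the release genes the vesicle GTPase Rab3d fell to 6.67 in E46 at labelled 100, against 8.28 in E46 controls (-1.61 ± 0.12, SE), and to 6.63 in A2/12 at labelled 100, against 8.35 in A2/12 controls (-1.71 ± 0.12, SE). Sytl5, an effector of Rab27, fell by 1.65 in E46 and by 1.09 in A2/12 on the log2 scale. Rab27b fell by 1.26 and Syt11 by 0.84 in E46, and Rab3b fell by 1.81 in A2/12. Syt7, a calcium sensor of granule release, went the other way in A2/12 and rose by 1.78 ± 0.13 (SE).

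Other granule cargo and membrane proteins were few: of 11 measured, 3 rose and 1 fell in E46 and 2 rose and 1 fell in A2/12. Ica1, a protein of islet granules and Golgi, rose by 0.97 ± 0.14 in E46 (SE). Ptprn, a membrane protein of the granule, rose to 6.30 in A2/12 at labelled 100, against 5.05 in A2/12 controls (1.26 ± 0.14, SE).

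Of 10 peptide-degrading enzymes measured of 12, 5 rose and 3 fell in E46, and 6 rose and 3 fell in A2/12, with medians of 0.09 and 0.35. Mme, or neprilysin, fell to 7.49 in A2/12 at labelled 100, against 11.58 in A2/12 controls (-4.09 ± 0.27, SE), and the aminopeptidase Enpep to 4.73, against 8.00 (-3.27 ± 0.16, SE). Both act at the cell surface, as does Anpep, which fell by 1.10 in E46. Prep, a cytosolic prolyl endopeptidase, rose by 0.72 ± 0.06 in E46, and Thop1, a cytosolic oligopeptidase, by 1.10 ± 0.10 in A2/12 (SE). Ece2 rose by 1.23 ± 0.10 in E46 and 1.63 ± 0.10 in A2/12 (SE) by its brighter probe set, but its dimmest one gave -0.28 and -0.60.

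Of 34 neuropeptide precursors measured of 38, 0 rose and 4 fell in E46, beside 19.3% of all genes lower there, and 3 rose and 6 fell in A2/12, beside 21.1%. Penk, the enkephalin precursor that Cpe helps process, fell to 5.38 in E46 at labelled 100, against 8.91 in E46 controls (-3.53 ± 0.28, SE), and to 6.87 in A2/12 at labelled 100, against 10.80 in A2/12 controls (-3.93 ± 0.28, SE). Of 12 regulators of endocrine and neuronal genes measured of 15, 3 rose and 0 fell in E46 and 4 rose and 1 fell in A2/12. Cebpb rose by 1.46 ± 0.13 and 1.10 ± 0.13, and Atf4, a CRE-family factor of the stress response, by 0.73 ± 0.07 and 1.02 ± 0.07, in E46 and A2/12 (SE). Rest, which represses neuronal and granule genes and is named here after its values were seen, averaged 9.35 in E46 at labelled 100, against 9.16 in E46 controls (adjusted p = 0.0779 in limma). At labelled 1, none of the genes in any of the lists was called against E46 controls in limma.

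**Figure D3:**
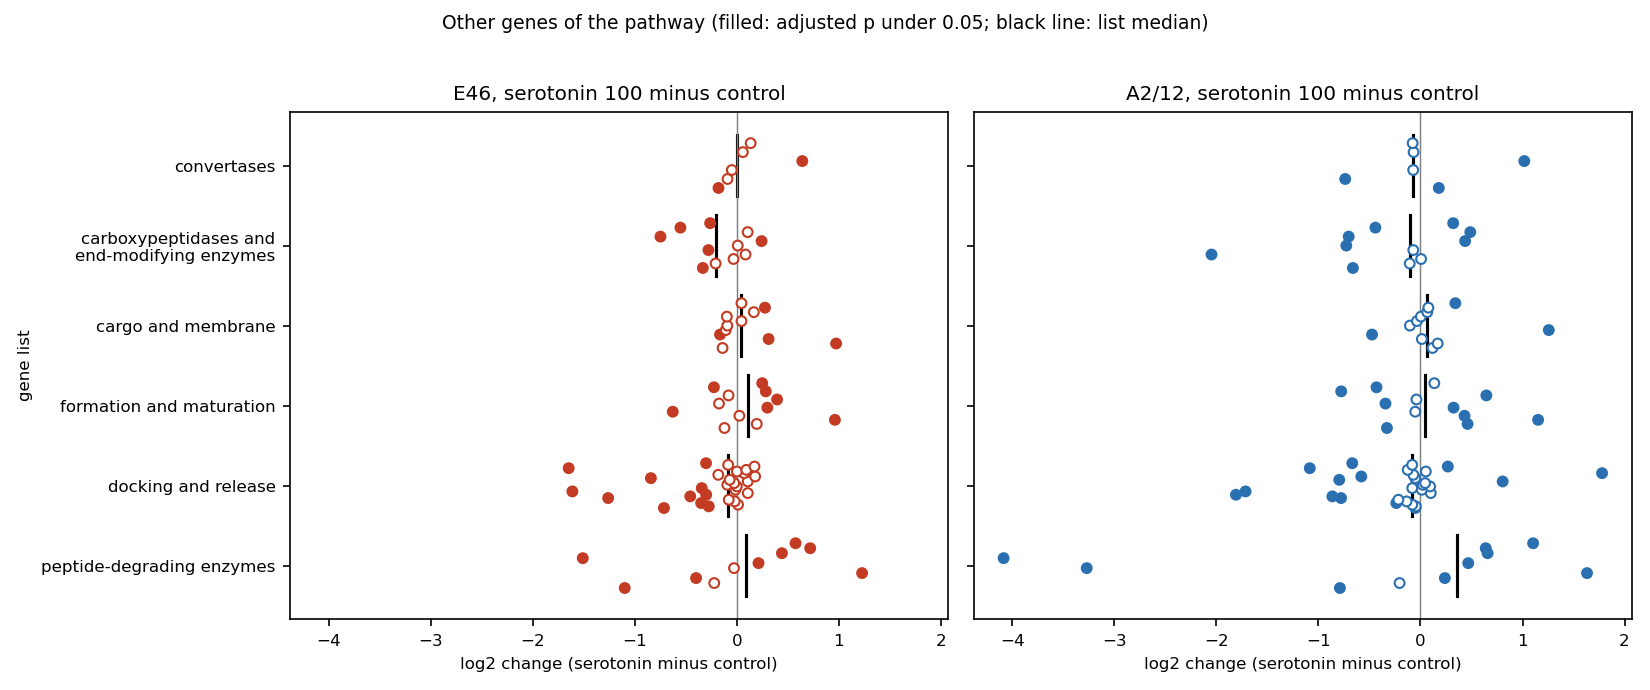
Log2 change at serotonin labelled 100 against the controls of the same line (x axis) for each measured gene (points, filled where called) of 6 wider lists (rows), with the list median as a black line, for E46 and A2/12. The release genes called in E46 all lie left of 0, while the called formation genes lie on both sides.

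Between the untreated lines, 7 of 12 formation and maturation genes were higher in E46 controls than in A2/12 controls and 0 lower, beside 21.1% of all genes higher and 18.1% lower, with a median of 0.28 beside 0.03 over all genes. Hid1 was 9.16 in E46 controls and 8.51 in A2/12 controls. Of the release genes 7 were higher and 6 lower. Rab3b stood at 5.97 in E46 controls and 8.87 in A2/12 controls, while Unc13b, a priming factor, stood at 6.06 and 4.63. Furin was 8.82 in E46 controls and 9.42 in A2/12 controls (-0.60 ± 0.07, SE). Of the degrading enzymes 2 were higher and 5 lower, Enpep at 3.95 and 8.00 and Mme at 8.40 and 11.58 among the lower.

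The calls of Pam, Cpe and Scg5 in E46 and of Pam, Cpe and Scg2 in A2/12 held without any 1 of the 8 arrays compared. Over these the change of Pam ran from -0.92 to -0.87 in E46 and from -1.71 to -1.64 in A2/12, that of Cpe from -0.63 to -0.55 and from -0.72 to -0.69. Scg5 ran from -0.44 to -0.35 in E46 and Scg2 from -0.86 to -0.61 in A2/12.

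**Figure D4:**
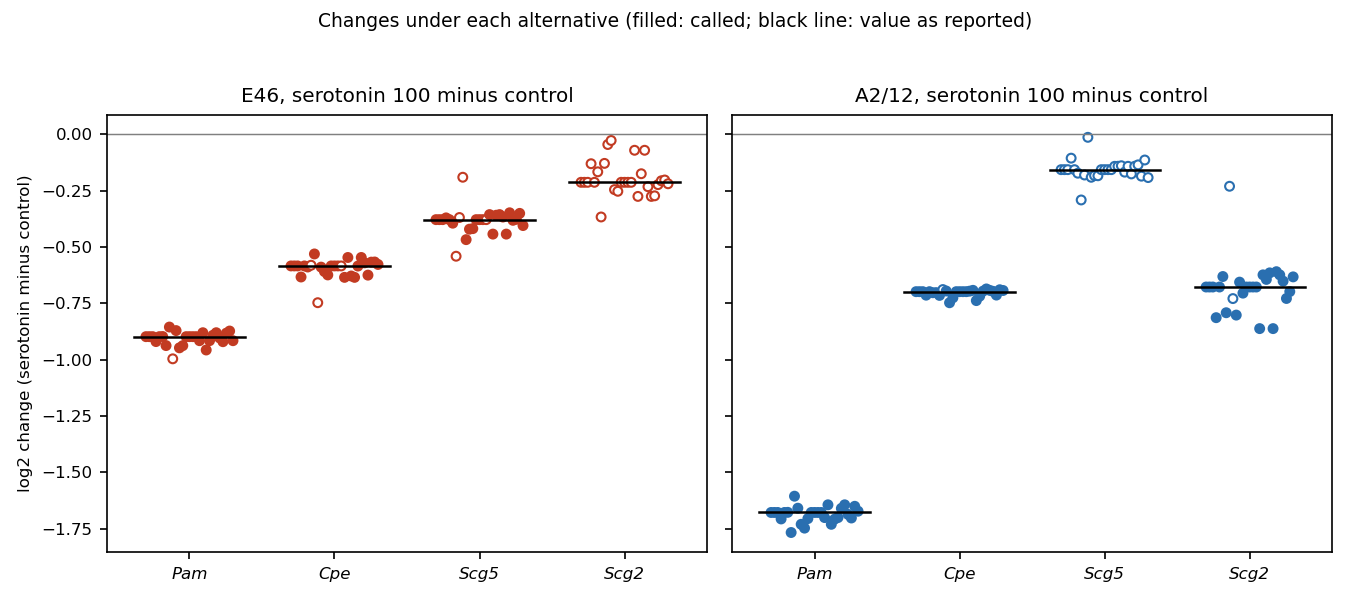
Log2 change with serotonin labelled 100 (y axis, serotonin minus control) of Pam, Cpe, Scg5 and Scg2 (x axis) under each other setting (points, filled where called) beside the value reported (black line), for E46 and A2/12. The setting that swaps the E46 doses is left out, and Pam and Cpe lie below 0 at every point drawn.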

How the data were processed

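Total RNA of 2 mouse cell lines was measured on 20 Affymetrix gene arrays, 4 per group. The deposited values are log2 signals that the authors computed by RMA, per the submitters' processing notes, a method that removes background, makes arrays comparable and combines the probes of a set. No version of it is stated. Of 35556 probe sets, 21218 had 1 symbol in the platform's annotation, which can be old, while 1881 had several and 12457 none, and these were left out. Symbols were updated by Entrez ID for 21185. A gene with more than 1 probe set (1386 genes) was read from its brightest, giving 18820 genes.

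A model with 1 mean per group was then fitted to the deposited log2 values of every array (limma 3.58.1, R 4.3.3, residual degrees of freedom 15). Tests were moderated with eBayes and adjusted over all genes by the Benjamini-Hochberg method, and a call means an adjusted p under 0.05. Figures were drawn in matplotlib 3.10.9 (Python 3.11.15). The code was tested on simulated data.

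Groups follow the titles. The members and the 15 wider lists (183 of 202 genes measured) were chosen with earlier results of these data known. Named are the members, up to 4 called genes per list with the smallest adjusted p, the 3 genes most correlated with each member above background, and Npy and marker genes as levels. Alternatives covered normalization, probe set choice, dim genes, prior, array weights, blocks, single arrays left out and the doses of the description.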

Additional observations from a re-analysis of the deposited data

Results flagged for a closer look

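Of 40 sets of 4 arrays (8 members in 5 groups), 1 held an array far from the others, where chance gives about 1 in 20. It was Scg2 in A2/12 control replicate 2, which read 4.26, while the nearest of the other controls read 4.97, a gap of 0.944 of the group's range, past Dixon's 95% critical value. That array is also 1 of the 4 with an upper quartile below 8.2.

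The response of Pam to serotonin labelled 100 differed between the lines. The change in E46 minus that in A2/12 was 0.78 ± 0.10 (SE, adjusted p = 5.64e-06 in limma).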

How the results depend on the processing

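The count of members called was 3 in E46 at labelled 100 against controls, 0 at labelled 1 against controls, 3 at labelled 100 against labelled 1, 3 in A2/12 at labelled 100, 1 for the difference of responses and 3 between the untreated lines. In that order of comparisons it became 1, 0, 1, 3, 0 and 1 at scan number 5 alone, 2, 0, 1, 2, 1 and 0 at number 7 alone, and 0, 0, 0, 1, 0 and 0 at number 9 alone, where fewer arrays were fitted. Requiring a fold of at least 1.5 left 1 in E46 at labelled 100 against controls and against labelled 1 and 0 between the lines. Array weights gave 3 for the difference of responses, and leaving out the arrays of low upper quartile gave 2. The upper quartile as a covariate gave 4 in E46 at labelled 100 against controls, adding Scg3. In A2/12 it gave 5, adding Pcsk1 (0.23, adjusted p = 0.01 in limma) and Chgb. Without single arrays the count ran from 3 to 5 for labelled 100 against labelled 1 (5 without E46 labelled 1 replicate 4, where Pcsk1 and Scg3 were added). It ran from 3 to 4 in A2/12 at labelled 100 and from 1 to 2 for the difference of responses. The causes were not tested.

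With the E46 doses of the description, which exchange the groups by construction, the counts were 0 for the dose called 100 against controls, 3 for the dose called 1 against controls and 2 for the difference of responses. Set against the dose called 1, Pam was then 0.77, Cpe 0.46 and Scg5 0.29. Against controls Qpct was 0.013, Pcsk4 -0.20, Ica1 -0.091, Rab27b 0.19, Ece2 -0.22, Prep -0.067, Cebpb -0.028 and Atf4 -0.026. The dimmest probe set of Ece2 gave -0.28 in E46 and -0.60 in A2/12. Of 1364 member values 1226 kept direction and side of the threshold, 37 lost a call and 19 gained one, while 79 of members not called changed sign. Of 1622 values of other named genes 1520 kept both and 92 lost the call.

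Arrays that share a replicate number did not deviate together as a rule. Over 40 pairs the correlation of deviations from group means ran from -0.550 to 0.406, with 14 above 0.1. In 22 of 80 cases an array correlated best with its own number. Within E46 the replicate 1 arrays did deviate together (0.372, 0.237 and 0.406), while each other replicate number gave both signs. With the replicate block the counts of members called stayed at 3, 0, 3, 3, 1 and 3, and 7468 genes were called in E46 at labelled 100 against 7451 without it. Apart from the swapped doses the genes called ran from 871 to 8623 there, from 0 to 284 at labelled 1 (main count 2, 284 without E46 labelled 1 replicate 2), from 1371 to 8194 for labelled 100 against labelled 1 (7796), from 1864 to 9505 in A2/12 (8645), from 73 to 5678 for the difference (4142) and from 1292 to 8530 between the lines (7368). Signal over background limits Scg2, Scg3 and Pcsk1.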
